A study of Mus musculus with 7 samples.

Results

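The miR-30 family was followed across 7 small RNA libraries of mouse testis. Its members were chosen by name, as every listed miRNA whose name begins with miR-30a, miR-30b, miR-30c, miR-30d, miR-30e or miR-30f, and 12 of the 331 mature miRNAs in the deposited table matched. They comprise 5 arms cut from the 5′ side of the hairpin (5p), taken as the family proper, 6 arms from the 3′ side (3p), taken as a check, and miR-30f, whose name gives no arm. The rule itself uses names only.

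All mice were of CD1, an outbred strain. T6 and T10 were uncultured testes of 6.5 and 10.5 dpp (days post-partum), ages that the sample labels round to 6 and 10. T6-12K and T6-12A were testes of 6.5 dpp kept for 12 days as explants on agarose, with Knockout Serum Replacement (KSR) in T6-12K and with AlbuMAX I, a bovine serum albumin rich in lipids, in T6-12A. T10-12K and T10-12A were the corresponding cultures of 10.5 dpp testes, and TAD was uncultured testis of an adult of 2 months. According to the study's methods, the tunica albuginea was removed before culture, and RNA was isolated from explants homogenised together. Each condition had 1 library, so no difference between conditions could be set against the variation between animals, no test was made, and every interval below covers counting error only. Whether the uncultured testes kept the tunica albuginea is not stated there. The explants hold germ cells together with somatic cells of the testis, so fewer cells of a type and less RNA per cell cannot be told apart.

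MicroRNAs are short RNAs that guide Argonaute proteins to messenger RNAs, mainly through their seed, the bases near the 5′ end that pair with the target. The miR-30 miRNAs are conserved among vertebrates, come from several hairpins that lie in neighbouring pairs, and are widely expressed, among others in epithelial, muscle and connective tissues. Arms that share a seed are expected to recognise largely the same targets, so the summed level of the family is of interest beside that of each member.

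The mature sequences below, from RefSeq on GRCm38.p6, are given because the family is defined by its seed and because some members differ by a single base. Of the 12 members, 8 were matched in this source. Sequences are written 5′ to 3′, and the capitals mark the seed, bases 2 to 8. The 5p arms of the first group share the seed GUAAACA.
miR-30a-5p: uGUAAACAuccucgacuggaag
miR-30c-5p: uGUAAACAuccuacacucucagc
miR-30e-5p: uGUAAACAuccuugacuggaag
The 3p arms fall into 2 groups, with the seed UUUCAGU in miR-30a-3p and miR-30e-3p and the seed UGGGAGA in both miR-30c 3p arms.
miR-30a-3p: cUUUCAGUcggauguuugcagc
miR-30e-3p: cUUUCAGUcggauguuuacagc
miR-30c-1-3p: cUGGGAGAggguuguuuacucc
miR-30c-2-3p: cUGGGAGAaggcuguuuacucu
miR-30f stands apart, with the seed UAAACAU.
miR-30f: gUAAACAUccgacugaaagcuc

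Counting positions from 1 at the 5′ end, miR-30a-5p and miR-30e-5p differ in 1 of 22 bases (C13U), and miR-30a-3p and miR-30e-3p also differ in 1 of 22 (G18A). The 3p arms of the 2 miR-30c hairpins differ in 3 of 22 bases (G9A, U12C and C22U), whereas miR-30c-5p is the same from both hairpins and cannot be assigned to either. It differs from miR-30a-5p in 5 of the 22 bases compared (C13A, G14C, G18C, G19U and A20C) and carries 1 base more. How reads that fit several miRNAs were counted is not given in the sources used here, so the split between miR-30a and miR-30e is the least certain in the family. The first 10 bases of miR-30f lie unbroken in miR-30a-5p from base 2 onwards, while 19 of its 22 bases match the reverse complement of miR-30e-3p. miR-30b-5p, miR-30b-3p, miR-30d-5p and miR-30d-3p complete the family. Outside it, miR-384-5p has the seed of the 5p arms and miR-6958-5p that of the miR-30c 3p arms. Neither is among the 331 listed miRNAs, so neither could be analysed.

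In GENCODE release 21 on GRCm38 the hairpins form 3 pairs. Mir30a (chr1:23272269-23272339, plus strand) overlaps no other annotated gene, and Mir30c-2 (chr1:23291701-23291784, plus strand) lies in an exon of the long non-coding RNA Gm27028, with 19361 bases between them. Mir30c-1 (chr4:120769534-120769622, minus strand) and Mir30e (chr4:120772606-120772697, minus strand) are 2983 bases apart in an intron of Nfyc, which encodes a subunit of the CCAAT-binding factor NF-Y and runs on the same strand. Mir30f has the coordinates of Mir30e on the plus strand, opposite to Nfyc. Mir30b (chr15:68337415-68337510, minus strand) and Mir30d (chr15:68341208-68341289, minus strand) are 3697 bases apart, in exons of the non-coding transcripts Gm26621 for Mir30b and Gm20732 and Gm37296 for Mir30d.

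The deposited values were turned into reads and scaled to CPM, which brings the reads on listed miRNAs to the same total in each library. These reads ranged from 1628770 in TAD to 13397407 in T10, so that 5 reads, the lowest nonzero value in most libraries, were worth 0.374 CPM in T6 and 3.07 CPM in TAD. miR-10b-5p alone took between 31.2% (TAD) and 54.4% (T6-12K) of the reads, and CPM of other miRNAs moves with that share. Median-of-ratios size factors, which centre each library on the typical ratio of its miRNAs to their mean over libraries, were therefore used beside CPM. T6-12K stood apart within the family, with the lowest CPM of all 5 5p arms and of 3 of the 6 3p arms, so the values that compare cultures with other libraries are also given without it, in CPM, where leaving it out could change them. Of the gonadal somatic markers miR-202-5p and miR-202-3p, both were detected in all 7 libraries, with summed levels between 93.7 and 234 CPM. The germ cell markers (4 of the 5 listed, among them miR-34c-5p) summed to 72.7 and 162 CPM in T6 and T10, to between 611 and 1950 CPM in the cultures and to 25465 CPM in TAD.

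The 5p family was abundant in every library and was carried by miR-30a-5p. Its summed level was 19376 and 23986 CPM in T6 and T10, 11303 and 20458 CPM in T6-12K and T6-12A, 15404 and 17486 CPM in T10-12K and T10-12A, and 31605 CPM in TAD, that is between 1.13% (T6-12K) and 3.16% (TAD) of the reads on listed miRNAs. TAD was thus highest and T6-12K lowest, and the cultured and uncultured libraries overlapped through T6-12A, which exceeded T6. With median-of-ratios size factors TAD remained highest, but T6 became the lowest library, with 115529 normalised reads against 133564 in T6-12K and 212463 in TAD.

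miR-30a-5p (mmu-miR-30a-5p) ranked between 6 (TAD) and 12 (T6) among the 331 miRNAs. Its level was 13097 and 17518 CPM in T6 and T10, 8939 and 16416 CPM in T6-12K and T6-12A, 11396 and 13170 CPM in T10-12K and T10-12A, and 23075 CPM in TAD. The intervals of T6 and T10-12A overlapped, while all other neighbours in this order differed beyond counting error. Reads behind these values numbered between 37584 in TAD and 234696 in T10.

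miR-30d-5p was the next most abundant member, with 4279 and 4483 CPM in T6 and T10, 1739 and 3055 CPM in T6-12K and T6-12A, 3140 and 3299 CPM in T10-12K and T10-12A, and 6307 CPM in TAD. In CPM every cultured library lay below every uncultured one, as for 26.4% of all miRNAs compared. With median-of-ratios size factors this order of miR-30d-5p was lost, with 26911 and 28677 normalised reads in T10-12K and T10-12A against 25514 in T6. miR-30e-5p, the sequence closest to miR-30a-5p, was measured at 1564 and 1561 CPM in T6 and T10, 421 and 692 CPM in T6-12K and T6-12A, 605 and 700 CPM in T10-12K and T10-12A, and 1402 CPM in TAD. T6 and T10 did not differ beyond counting error, nor did T6-12A and T10-12A, and a wide gap separated the highest culture from TAD.

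miR-30c-5p and miR-30b-5p were the least abundant 5p arms. miR-30c-5p was present at 319 and 311 CPM in T6 and T10, 138 and 190 CPM in T6-12K and T6-12A, 181 and 223 CPM in T10-12K and T10-12A, and 542 CPM in TAD. miR-30b-5p was found at 117 and 112 CPM in T6 and T10, 66.8 and 104 CPM in T6-12K and T6-12A, 82.1 and 94.9 CPM in T10-12K and T10-12A, and 279 CPM in TAD. Both were highest in the adult testis, and T6 and T10 were within counting error of each other for both.

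**Figure D1:**
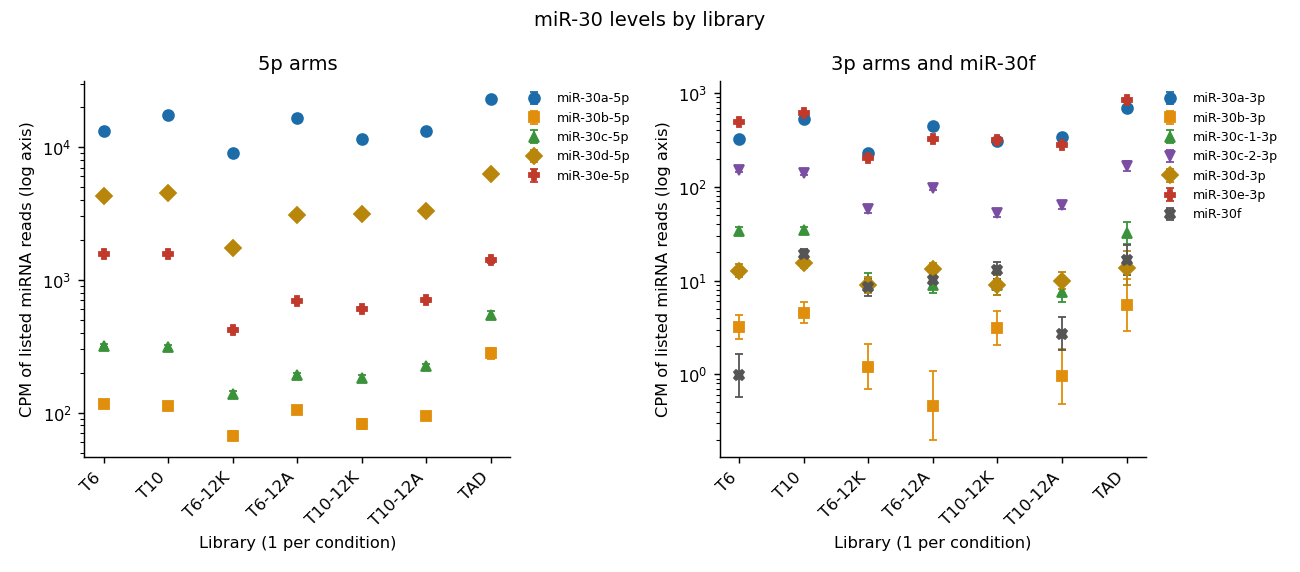
Level of the 5p arms (left) and of the 3p arms and miR-30f (right) in CPM of listed miRNA reads on a log axis, for the 7 libraries, 1 per condition. Points are single libraries and bars are 95% intervals of counting error. miR-30a-5p is the highest 5p arm in every library, between 8939 and 23075 CPM, and miR-30e-5p and miR-30c-1-3p lie lower in the 4 cultures than in T6, T10 and TAD.

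The composition of the family does not depend on how the libraries are scaled. miR-30a-5p made up 67.6% and 73.0% of the 5p reads in T6 and T10, 79.1% and 80.2% in T6-12K and T6-12A, 74.0% and 75.3% in T10-12K and T10-12A, and 73.0% in TAD. At this depth the 95% Wilson intervals are narrow, from 67.4% to 67.8% in T6. All 4 cultures thus held a larger share of miR-30a-5p than the 3 uncultured libraries, by a margin that was small at 10.5 dpp. This order was lost when miR-30a-5p and miR-30e-5p were summed, with 79.5% in T10 against 77.9% and 79.3% in T10-12K and T10-12A. The share of miR-30d-5p ranged from 14.9% in T6-12A to 22.1% in T6.

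The share of miR-30e-5p differed the other way between the groups. It contributed 8.07% and 6.51% of the 5p reads in T6 and T10, 3.72% and 3.38% in T6-12K and T6-12A, 3.93% and 4.0% in T10-12K and T10-12A, and 4.44% in TAD. Its share was thus lower in every culture than in every uncultured library, with the adult testis nearer to the cultures than to T6 and T10. miR-30c-5p and miR-30b-5p together stayed a small part, with at most 1.72% and 0.882%, both in TAD.

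**Figure D2:**
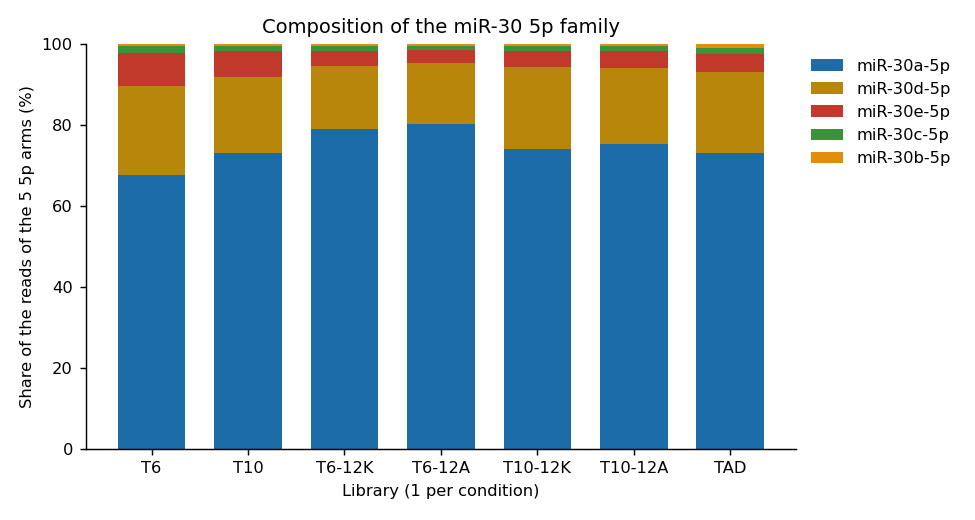
Share of each 5p arm in the summed reads of the 5 5p arms, in percent, for the 7 libraries. Stacked bars run from 0 to 100%; miR-30a-5p takes between 67.6% (T6) and 80.2% (T6-12A), and miR-30e-5p is widest in T6 with 8.07%.

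Reads of the 3p arms were fewer and followed the same broad order. Their summed level was 1019 and 1350 CPM in T6 and T10, 515 and 893 CPM in T6-12K and T6-12A, 696 and 705 CPM in T10-12K and T10-12A, and 1750 CPM in TAD. miR-30e-3p, from 206 CPM (T6-12K) to 840 CPM (TAD), and miR-30a-3p, from 231 CPM (T6-12K) to 694 CPM (TAD), were the main ones. miR-30c-2-3p ranged from 52.6 CPM in T10-12K to 166 CPM in TAD, and miR-30d-3p from 8.96 CPM in T6-12K to 15.5 CPM in T10.

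miR-30c-1-3p, the 3p arm of the chromosome 4 copy of miR-30c, was one of the members with the widest gap between cultured and uncultured testes. It was found at 33.6 and 34.3 CPM in T6 and T10, 9.97 and 8.99 CPM in T6-12K and T6-12A, 8.90 and 7.57 CPM in T10-12K and T10-12A, and 31.9 CPM in TAD. The uncultured libraries were thus close to each other and the cultures were close to each other, with no overlap. miR-30b-3p rested on few reads, with 43 and 61 in T6 and T10, 12 and 5 in T6-12K and T6-12A, 22 and 8 in T10-12K and T10-12A, and 9 in TAD.

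The comparison of T10 with T6 spans the onset of meiosis, which by the study's account had begun at 10.5 dpp but not at 6.5 dpp. A miRNA was called in a comparison if it differed at least 2-fold in the same direction in every pair of libraries compared, among miRNAs with at least 50 reads in 1 of them. Of the 12 members, all of which passed the minimum, 1 was called higher in T10 and 0 lower, beside 10.3% higher and 3.55% lower among the 310 miRNAs compared. The member called was miR-30f. The summed 5p family showed a log2 ratio of T10 to T6 of 0.31 (0.300 to 0.315), with a median of -0.06 over all miRNAs. miR-30a-5p carried this difference with 0.42, whereas the other 4 5p arms lay between -0.05 and 0.07, and miR-30a-3p stood at 0.72.

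miR-30f, the small RNA opposite to Mir30e, was erratic. It was counted with 13 and 256 reads in T6 and T10, 84 and 110 reads in T6-12K and T6-12A, 91 and 23 reads in T10-12K and T10-12A, and 27 reads in TAD, which corresponds to 0.973, 19.1, 8.46, 10.2, 12.9, 2.72 and 16.6 CPM in this order. T6 was lowest and T10-12A next, and the other 5 libraries lay within 8.46 and 19.1 CPM. Its log2 ratio of T10 to T6 was 4.30 (3.49 to 5.10), and that of T10-12A to T10-12K was -2.24 (-2.90 to -1.58). These calls rest on the low counts of T6 and T10-12A. A minimum of 50 reads in both libraries leaves miR-30f out of these comparisons, so that setting cannot show whether the differences hold.

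The adult testis was compared with T6 and T10, to which it adds the later germ cell stages. miR-30b-5p was the 1 of 12 members called higher in TAD, and 0 were called lower, beside 15.4% higher and 31.3% lower among 319 miRNAs. It rose by log2 ratios of 1.26 (1.11 to 1.41) over T6 and 1.31 (1.16 to 1.46) over T10, and by 1.43 and 1.51 with median-of-ratios size factors, with which it was again the 1 member called, beside 17.9% higher and 27.6% lower of all. In the values as deposited this call was not made.

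The remaining 5p arms, none of which was called, had mean log2 ratios in TAD of 0.78 (miR-30c-5p), 0.61 (miR-30a-5p), 0.53 (miR-30d-5p) and -0.16 (miR-30e-5p). The median of the 5 5p arms was 0.61, while that of all miRNAs compared was -0.46. These medians were 0.79 and -0.28 with median-of-ratios size factors. The values of the summed family were 0.71 over T6 and 0.40 over T10. Over the same libraries the germ cell markers differed as given above, and the endothelial markers miR-126a-3p and miR-126a-5p summed to 190, 181 and 405 CPM in T6, T10 and TAD. The part of either in these ratios was not tested.

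The cultures were compared with the testes from which they started. At 6.5 dpp, 2 members were called lower and 1 higher in both media, of the 11 that passed the minimum, beside 32.4% lower and 8.01% higher among 312 miRNAs. Those called lower were miR-30e-5p, with log2 ratios to T6 of -1.89 in T6-12K and -1.18 in T6-12A, and miR-30c-1-3p, with -1.75 and -1.90. miR-30f was called higher, with 3.12 and 3.39, from the low level in T6. The calls were the same in number without T6-12K. Since a call needs every pair, leaving out a culture could not undo any of these calls.

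At 10.5 dpp, 3 of the 12 members were called lower and 0 higher, beside 31.9% lower and 7.57% higher among 317 miRNAs. miR-30e-5p again belonged to them, with log2 ratios to T10 of -1.37 in T10-12K and -1.16 in T10-12A. miR-30c-1-3p stood at -1.95 and -2.18, and miR-30c-2-3p at -1.42 and -1.16. miR-30a-5p, with -0.62 and -0.41, was not called.

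The sizes of these falls depend on the scaling, because the typical miRNA was itself lower in CPM after culture. Over all miRNAs compared, the median log2 ratio was -1.02 at 6.5 dpp and -0.80 at 10.5 dpp in CPM, but -0.31 and -0.24 with median-of-ratios size factors. With the latter, 0 members were called lower at 6.5 dpp, beside 15.7% of all, and 1 at 10.5 dpp, miR-30c-1-3p with -1.40 and -1.61, beside 18.6%. The distance of a member from that median is nearly free of the scaling. For miR-30e-5p it was -0.65 and -0.54 in T6-12K and T6-12A and -0.60 and -0.37 in T10-12K and T10-12A. For miR-30c-1-3p it was -0.51, -1.27, -1.18 and -1.39 in the same order.

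The summed 5p family was less reduced. Its log2 ratios to the starting testis were -0.78 and 0.08 in T6-12K and T6-12A and -0.64 and -0.46 in T10-12K and T10-12A, above the median of all miRNAs in each of the 4 libraries (-1.24, -0.63, -0.77 and -0.79). They were 0.21, 0.51, -0.09 and 0.11 with median-of-ratios size factors, so the direction turned in 2 of the 4. Without T6-12K the 6.5 dpp value in CPM was 0.08 in place of a mean of -0.35.

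**Figure D3:**
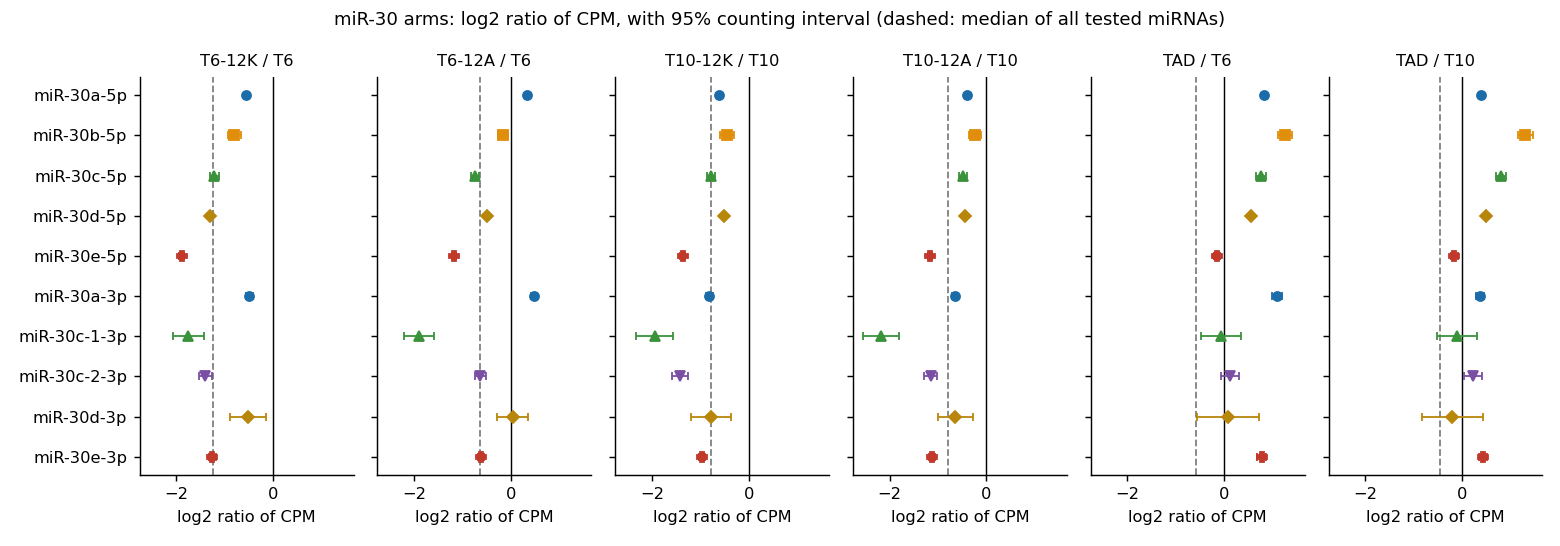
Log2 ratio of CPM for 10 miR-30 arms in 6 pairs of libraries, with 95% intervals of counting error; the solid line marks no difference and the dashed line the median of all miRNAs compared in that pair. miR-30e-5p and miR-30c-1-3p lie left of the dashed line in all 4 cultures, miR-30b-5p lies farthest right in both adult panels, and miR-30b-3p and miR-30f, with few reads, are not drawn.

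Cultured and uncultured testes were also compared without regard to age. In CPM, 8 of the 12 members were lower in every culture than in T6, T10 and TAD, and 0 were higher, beside 26.4% lower and 4.91% higher among 326 miRNAs. The 8 were miR-30b-5p, miR-30c-5p, miR-30d-5p, miR-30e-5p, miR-30b-3p, miR-30c-1-3p, miR-30c-2-3p and miR-30e-3p. With median-of-ratios size factors 4 were lower (miR-30e-5p, miR-30e-3p, miR-30c-1-3p and miR-30c-2-3p), beside 13.2% lower and 11.3% higher of all. With the trimmed mean of M-values 3 were lower (miR-30e-5p, miR-30e-3p and miR-30c-1-3p), beside 9.2% lower and 13.5% higher. Every member in the last set comes from the chromosome 4 pair of hairpins in Nfyc. This held under that scaling only, since the sets of all other scalings included miR-30c-2-3p of chromosome 1. The values as deposited gave 8 members lower, beside 20.9% lower and 5.52% higher of all, and CPM without the 2 most abundant miRNAs gave 5, beside 15% lower and 8.59% higher. Under all 5 scalings 0 members were higher. Without T6-12K, 8 members were lower and 0 higher in CPM, beside 29.2% lower and 6.46% higher among 325 miRNAs. The rule asks for every culture, so leaving out a culture could add members but not remove any of the 8.

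Ratios between related members, in which the scaling cancels, set the chromosome 1 pair against the chromosome 4 pair. The reads of miR-30a-5p exceeded those of miR-30e-5p 8.38-fold and 11.2-fold in T6 and T10, 21.2-fold and 23.7-fold in T6-12K and T6-12A, 18.8-fold in both cultures of 10.5 dpp, and 16.5-fold in TAD. Every culture was above every uncultured library beyond counting error, with the adult again between T10 and the cultures. For comparison, 24.8% of the 7140 ratios between miRNAs that averaged 100 CPM or more separated cultured from uncultured libraries in either direction.

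The 3p arms of the chromosome 1 and chromosome 4 pairs gave the same order of the groups as miR-30a-5p over miR-30e-5p. The ratio of miR-30a-3p to miR-30e-3p was 0.661 and 0.867 in T6 and T10, 1.12 and 1.40 in T6-12K and T6-12A, 0.964 and 1.20 in T10-12K and T10-12A, and 0.826 in TAD. miR-30c-2-3p exceeded miR-30c-1-3p 4.52-fold and 4.11-fold in T6 and T10, 5.76-fold and 10.9-fold in T6-12K and T6-12A, 5.90-fold and 8.36-fold in T10-12K and T10-12A, and 5.19-fold in TAD. The first of these ratios was higher in every culture than in every uncultured library beyond counting error. The second had the same order, but the interval of TAD, with 52 reads of miR-30c-1-3p, overlapped those of T6-12K, T10-12K and T10-12A, the interval of T6 overlapped those of T6-12K and T10-12K, and that of T10 just overlapped that of T10-12K. Since miR-30a and miR-30e may share reads, both of their ratios are less certain than the counting error says.

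**Figure D4:**
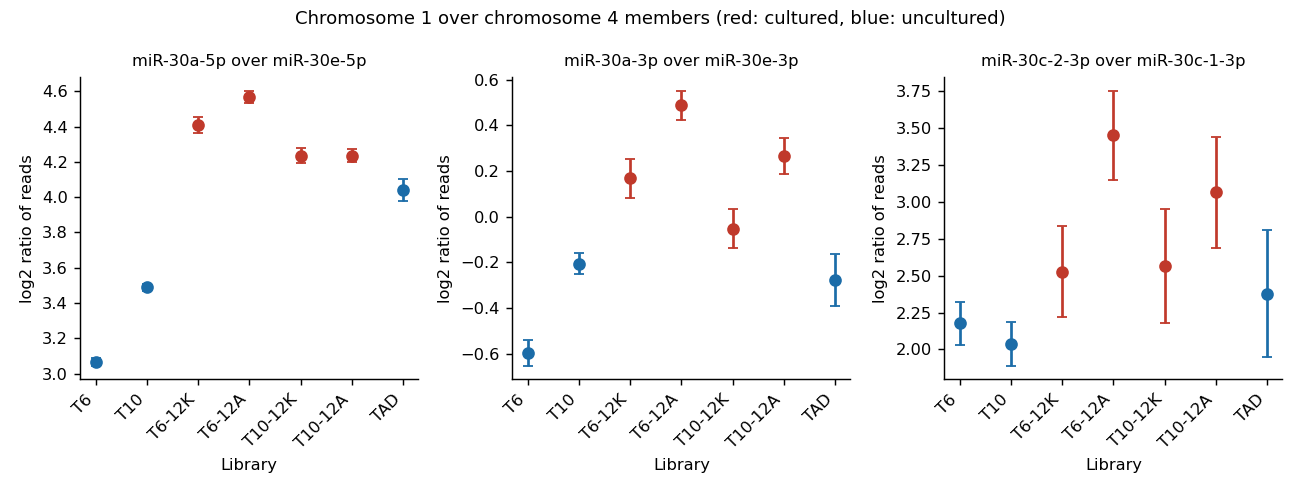
Log2 ratio of reads of chromosome 1 members over their chromosome 4 relatives in the 7 libraries, with 95% intervals of counting error; cultured libraries are red and uncultured ones blue. In each panel the 4 cultured points lie above the 3 uncultured ones, from 4.23 to 4.57 against 3.07 to 4.04 for miR-30a-5p over miR-30e-5p, and for the miR-30c arms the interval of TAD overlaps those of 3 cultures and that of T6 those of 2.

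Of the blood markers, miR-451a and miR-144-3p were lower in every culture than in every uncultured library, as were 26.4% of all miRNAs compared in CPM. Of the 3 erythroid markers, miR-451a was counted with 120 reads in T6, 92 in T10 and 6 in TAD and miR-144-3p with 17, 91 and 5, and both were listed at 0, which allows up to 4 reads, in all 4 cultures. In TAD both counts lay near 5 reads, the lowest nonzero value of that library. The summed erythroid level, nearly all of it miR-486a-5p, was 1688 CPM in T6, 1490 in T10, 1109 in TAD and between 445 and 2554 CPM in culture, highest in T6-12K. This sum thus overlapped between cultured and uncultured libraries. The leukocyte markers (2 of the 4 listed) summed to between 5.54 CPM in T6-12K and 45.4 CPM in TAD. Epithelial markers (5 of the 6 listed) ranged from 104 CPM in T6 to 401 CPM in T10-12A. Among them, miR-141-3p and miR-205-5p stood at 126 and 20.9 CPM in T6-12K, against at most 15.3 and 2.16 CPM in any other library. The other epithelial markers did not stand out in T6-12K. Mesenchymal markers (5 of 5) ranged from 106268 CPM in T6 to 259014 CPM in TAD, and the 1 listed striated muscle marker of 3, miR-133a-3p, from 2.60 to 30.4 CPM. The mesenchymal sum was nearly all miR-143-3p (103729 CPM in T6 and 258115 in TAD), while the other 4 listed markers were lower in TAD than in T6, among them miR-199a-3p with 713 against 1932 CPM. The part of these cells in the levels of miR-30e and miR-30c-1-3p was not tested.

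The media were compared within each starting age. At 6.5 dpp, 0 of the 11 members that passed the minimum were called, beside 27.1% higher and 4.46% lower with AlbuMAX I among 269 miRNAs. The summed 5p family had a log2 ratio of T6-12A to T6-12K of 0.86, with a median of 0.65 over all miRNAs. The 5 5p arms ranged from 0.47 (miR-30c-5p) to 0.88 (miR-30a-5p). The family ratio was 0.30 and the median of all 0.10 with median-of-ratios size factors, and 0 members were called, beside 10.4% higher and 10.8% lower.

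At 10.5 dpp the media gave closer values. miR-30f was the 1 of 11 members called lower with AlbuMAX I, and 0 were called higher, beside 3.63% lower and 2.82% higher among 248 miRNAs. The family ratio of T10-12A to T10-12K was 0.18 and the median of all -0.04. The 5p arms lay between 0.07 (miR-30d-5p) and 0.30 (miR-30c-5p), and the composition of the family was nearly the same in both media. miR-30e-3p had a log2 ratio of -0.16 at 10.5 dpp but of 0.64 at 6.5 dpp.

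The cultures were set against the adult testis, the stage towards which they are meant to develop. In TAD, 5 of the 11 members that passed were called higher than all 4 cultures and 0 lower, beside 23% higher and 8.83% lower among 283 miRNAs. They were miR-30b-5p (log2 ratios of 1.42 to 2.06), miR-30c-5p (1.28 to 1.98), miR-30e-5p (1.00 to 1.74), miR-30c-1-3p (1.68 to 2.08) and miR-30e-3p (1.39 to 2.03). Of these, miR-30b-5p and miR-30e-3p were also called with median-of-ratios size factors, beside 17.7% of all. None of the 5 calls was made with the trimmed mean of M-values or in the values as deposited, where 0 members were called, and 1 was made in CPM without the 2 most abundant miRNAs. Without T6-12K, 5 members were called in CPM, a number that could not have fallen under a rule over every pair. The family ratios were 1.48 over T6-12K, 0.63 over T6-12A, 1.04 over T10-12K and 0.85 over T10-12A. T6, T10 and TAD serve in several of these comparisons, so they are not independent of each other.

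The ratio of the 5p to the 3p arm of a hairpin checks whether both arms moved together. For Mir30a it was 40.2 and 32.7 in T6 and T10, 38.6 and 36.4 in T6-12K and T6-12A, 37.3 and 38.7 in T10-12K and T10-12A, and 33.3 in TAD, a span of 0.30 on the log2 scale. The 2 arms of Mir30a thus kept nearly the same proportion while their levels varied 2.58-fold (5p) and 3.0-fold (3p). For Mir30e the ratio was 3.18 and 2.52 in T6 and T10, 2.05 and 2.15 in T6-12K and T6-12A, 1.91 and 2.47 in T10-12K and T10-12A, and 1.67 in TAD. It was highest in T6 and lowest in the adult, while T10 and T10-12A did not differ beyond counting error. In the adult miR-30e-3p was at its highest and miR-30e-5p was not.

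The ratios of Mir30d and Mir30b varied more than that of Mir30e, and that of miR-30c varied over a similar span. miR-30c-5p exceeded the sum of both its 3p arms 1.72-fold and 1.77-fold in T6 and T10, 2.04-fold and 1.78-fold in T6-12K and T6-12A, 2.95-fold and 3.15-fold in T10-12K and T10-12A, and 2.74-fold in TAD. The 10.5 dpp cultures and the adult thus stood above the other 4 libraries. For Mir30d the ratio ranged from 194 (T6-12K) to 467 (TAD), and for Mir30b from 24.7 (T10) to 225 (T6-12A), where the 3p arm had 5 reads.

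**Figure D5:**
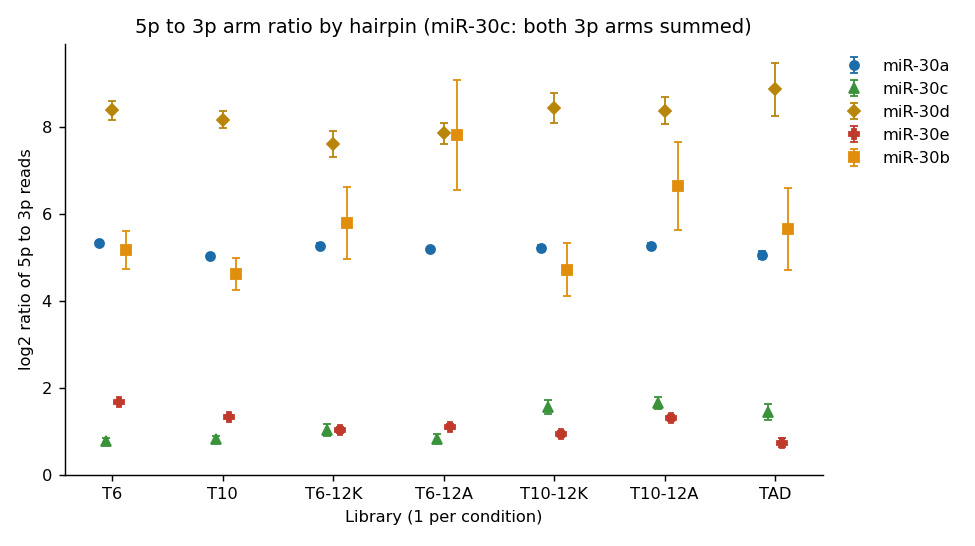
Log2 ratio of 5p to 3p reads by hairpin in the 7 libraries, with 95% intervals of counting error. miR-30a stays within 5.03 and 5.33, miR-30e lies between 0.74 (TAD) and 1.67 (T6), and the intervals of miR-30b are wide because its 3p arm had 5 to 61 reads.

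Likeness of 2 profiles was measured as the standard deviation (SD) over the 7 libraries of the log2 ratio of their reads, which is 0 for profiles in constant proportion. It is a description over libraries that share depth and composition. Over the 7140 pairs of 120 miRNAs that averaged 100 CPM or more and were above 0 in all libraries, the median SD was 0.93. The 10 pairs of 5p arms had a median SD of 0.34, from 0.198 for miR-30c-5p and miR-30d-5p to 0.557 for miR-30b-5p and miR-30e-5p. The closest pair in the family was miR-30a-5p with miR-30a-3p, at 0.114, of which counting error alone would give 0.0288. miR-30a-5p and miR-30e-5p, which differ in 1 base, were among the least alike 5p arms with 0.538.

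Among the 112 miRNAs outside the family with that mean level, those closest to miR-30a-5p were miR-340-5p (SD 0.268), miR-22-3p (0.282), miR-151-5p (0.291), miR-872-5p (0.294) and miR-145a-3p (0.301). All 5 were less close to miR-30a-5p than miR-30a-3p, but their SDs lay below the median of the pairs of 5p arms (0.34). miR-340-5p and miR-22-3p were closer to miR-30a-5p than any other 5p arm, of which miR-30d-5p was the closest (0.288). Among pairs singled out after their values were seen, miR-30d-5p was closest to miR-872-5p (0.119) and miR-30e-5p to miR-25-3p (0.150) and miR-93-5p (0.182), so the profile of miR-30e-5p lay nearer to these miRNAs than to that of any other miR-30 arm.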

How the data were processed

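The 7 libraries hold small RNAs of mouse testis, and the authors deposited a signal for each of 331 mature miRNAs and library, in a table of the series and in 7 tables identical to it. According to the study's methods, adaptors were trimmed, quality was assessed with FastQC, and reads were aligned with Bowtie to mm10 and then to miRBase 21. The submitters' processing notes also name HTSeq and DESeq, without versions.

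In each library the deposited signal was a whole multiple of 1 number, the worth of 1 read. It was estimated as the largest step of the low values and refined by least squares. Division by it gave whole reads (within 0.05) for 100% of values below 10000 reads. The step was tested on simulated reads. Median-of-ratios size factors, the trimmed mean of M-values and 2-fold calls with them were tested on simulated pairs of libraries. In these, as many miRNAs were raised as lowered. CPM and the rule over every pair of libraries were not simulated. The reads were scaled to CPM of the listed miRNAs, without a count model, since each condition had 1 library. Intervals are 95% Wilson intervals for levels and shares and log-scale intervals for ratios, for counting error only. A value of 0 was set to 5 reads where a ratio was needed.

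The members and lists were chosen with earlier results of these data known. Named were every member, the 5 miRNAs outside the family closest to miR-30a-5p, miRNAs sharing its seed, the most abundant miRNA and cell type markers. Alternatives were median-of-ratios size factors, the trimmed mean of M-values (trims of 30% and 5% on the ratio and level), values as deposited, CPM without the 2 most abundant miRNAs (miR-10b-5p and miR-143-3p), a 1.5-fold threshold, other filters, 1 CPM added before the logarithm, and leaving out libraries. Leaving out T6-12K and the scalings of the comparison of all cultured with all uncultured libraries were chosen after seeing the data. Python 3.11.15, numpy 2.4.6 and pandas 2.3.3 were used.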

Additional observations from a re-analysis of the deposited data

Results flagged for a closer look

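For miR-30e-3p the log2 ratio of AlbuMAX I to KSR had opposite signs at the 2 starting ages, beyond counting error in CPM. It was 0.64 at 6.5 dpp and -0.16 at 10.5 dpp, a difference of 0.81. With median-of-ratios size factors the ratios were 0.09 and -0.14. This difference was not tested, since each of the 4 cultures was 1 library, and the comparison at 6.5 dpp rests on T6-12K.

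For miR-30f the cultures differed from the starting testis in opposite directions at the 2 ages, beyond counting error in every pair in CPM. The log2 ratios were 3.12 and 3.39 in T6-12K and T6-12A over T6 and -0.57 and -2.81 in T10-12K and T10-12A over T10, a difference of the means of 4.95. They rest on 13 reads in T6 and 256 in T10. With median-of-ratios size factors the ratio of T10-12K to T10 was -0.02, within counting error. This difference was not tested either. Each of the 2 contrasts had 1 of the 12 members with such opposite signs in CPM. The share of all miRNAs with such opposite signs was not obtained, so these counts cannot be called unusual.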

How the results depend on the processing

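The level of the summed 5p family depended on the scaling. Its log2 ratios in CPM were 0.31 for T10 over T6, 0.55 for TAD over T6 and T10, -0.35 and -0.55 for the cultures of 6.5 and 10.5 dpp over their start, 0.86 and 0.18 for AlbuMAX I over KSR at these ages, and 1.00 for TAD over the cultures. In the same order they were 0.28, 0.74, 0.36, 0.013, 0.30, 0.20 and 0.55 with median-of-ratios size factors. The trimmed mean of M-values gave 0.074, 0.61, 0.42, 0.22 and 0.39, then 0.29 for TAD over the cultures. As deposited they were 0.39, -0.15, -0.15, -0.86, 0.60, 0.21 and 0.36, and without the 2 most abundant miRNAs 0.40, 0.53, 0.29, -0.17, 0.45, 0.15 and 0.47. Both culture ratios thus changed sign under some scalings, and the adult ratio in the values as deposited. Without T6-12K the 6.5 dpp ratio was 0.078 and that of TAD over the cultures 0.84.

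The counts of members called also moved. In TAD over the cultures, 5 were higher in CPM, 2 with median-of-ratios size factors, 1 without the 2 most abundant miRNAs, and 0 as deposited or with the trimmed mean of M-values. The 2 members lower in the 6.5 dpp cultures became 0 with the 3 scalings other than the deposited one, and the 3 lower at 10.5 dpp became 1. The 1 higher in TAD over T6 and T10 became 0 as deposited. A 1.5-fold threshold gave 2 higher in T10, 2 higher in TAD over T6 and T10, 5 lower at 6.5 dpp, 6 lower at 10.5 dpp, 7 higher with AlbuMAX I at 6.5 dpp and 8 higher in TAD over the cultures. At least 50 reads in every library compared gave 0 higher in T10, 0 higher at 6.5 dpp and 0 lower with AlbuMAX I at 10.5 dpp, because miR-30f was then left out. Without a filter, 1 and 2 members were lower with AlbuMAX I at 6.5 and 10.5 dpp. For calls by fold, the share of all miRNAs called was obtained only at 2-fold in CPM and with median-of-ratios size factors. The counts under the other settings therefore cannot be set against the miRNAs outside the family. The 8 members lower in every culture in CPM include miR-30b-3p and miR-30b-5p, whose order was within counting error. The 8 became 4 with median-of-ratios size factors, 3 with the trimmed mean of M-values and 5 without the 2 most abundant miRNAs.

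Summed with miR-30e-5p, the share of miR-30a-5p ranged from 75.7% to 83.6%. The span of the miR-30c arm ratio was 1.70 against miR-30c-1-3p alone and 0.86 against miR-30c-2-3p. Of the 5 miRNAs closest to miR-30a-5p, between 1 (without TAD) and 4 (without T6-12K) were kept, 3 without T6-12A, 2 without T10-12K and 3 without T10-12A, and 0 were kept in every alternative. The depth of TAD limits miR-30b-3p and miR-30f, and 1 library per condition limits every comparison. No paired analysis was possible because each condition had 1 library and the labels carry no replicate numbers.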
